A study of Mus musculus with 51 samples.

Results

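The data described here are the 6 arrays, of 51 in the series, that compared a pair of clonal mouse fetal liver stromal lines, AFT024 and BFC012, grown without hematopoietic cells and then sorted. They were chosen by their sample titles: 3 arrays of AFT024 and 3 of BFC012. Both lines came from fetal liver at embryonic day 14.5 of the C57BL/6 strain. AFT024 is labelled as supportive of HSPCs, the stem and progenitor cells of the blood, and BFC012 as non-supportive. After 4 days of culture the stroma was recovered by flow sorting of cells that lacked CD45, the pan-leukocyte surface antigen, and 100 ng of total RNA from each sample was hybridised to 1 Affymetrix mouse gene 1.0 ST array. A matched set of 6 arrays held the same lines grown with KLS cells, bone marrow cells of the c-Kit+Sca1+Lin- phenotype that is enriched for HSPCs, and the lines were also arrayed as confluent cultures. The comparison asks how a supportive and a non-supportive stroma differed before any contact with hematopoietic cells. Each line is 1 clone, so a difference between them belongs to these clones and cannot be told apart from the label of support. Whether the 3 replicates of a line were grown separately is not stated, so the scatter behind the p-values may be technical. For this pair that scatter is pooled over the 12 sorted arrays fitted together, those with KLS cells included. The fit without replicate 1 of both lines also kept the arrays with KLS cells.

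Stromal cells of the fetal liver form the scaffold of the organ in which hematopoietic stem cells expand before they move to the bone marrow. They secrete cytokines and chemokines that keep or attract blood progenitors, lay down collagens, proteoglycans and proteases, and present Notch, Wnt and adhesion signals. Lines of this kind also carry the positional code of their origin in Hox and other developmental transcription factors, which tends to persist in culture.

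Values are log2 signals, differences are AFT024 minus BFC012, and array values are given in the order of replicates 1, 2 and 3. Limma gave standard errors (SE) and p-values, adjusted over 19938 genes, and a gene was called past the threshold at an adjusted p under 0.05. The labelled cell type was set against marker genes. The 28 measured mesenchymal surface markers had a median signal of 6.91 to 7.30 on the AFT024 arrays and 6.51 to 7.20 on the BFC012 arrays. The 24 leukocyte markers had medians of 4.90 to 5.15 and 4.92 to 4.96, near the first quartile of all genes, which lay between 4.57 and 4.67. Ptprc, the gene of CD45 itself, measured 4.25, 4.30 and 4.28 in AFT024 and 4.32, 4.31 and 4.30 in BFC012, below that quartile on each array. Of the leukocyte list 1 gene passed, Arhgdib, at 10.38, 10.18 and 10.08 against 8.45, 8.08 and 8.05 (adjusted p = 0.000671). None of 19 macrophage, 22 endothelial and 10 erythroid markers passed with all replicates, but 1 macrophage marker passed as lower and 1 erythroid marker as higher without replicate 1, and 1 of each as higher with the replicate block described below.

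Replicate 1 stood apart in both lines. AFT024 replicate 1 correlated with its own line's replicates at 0.975 and 0.977 and with BFC012 replicate 1 at 0.976, while AFT024 replicates 2 and 3 correlated at 0.996. BFC012 replicate 1 correlated with its own line at 0.973 and 0.972, and BFC012 replicates 2 and 3 at 0.995. Counts and differences below are from all replicates, with the value without replicate 1 of both lines beside counts of genes and the differences that follow array values. Array medians were alike (5.65 to 5.76 over all probe sets), and no label gave a batch or date that could be set against replicate 1. In these bulk samples, fewer cells of a type and less RNA per cell cannot be told apart.

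With all replicates, 1459 of 19938 genes (7.32%) differed between the lines, 699 higher in AFT024 (3.51%) and 760 lower (3.81%). Of these, 434 differed at least 2-fold, 279 higher and 155 lower. Without replicate 1, 2405 genes passed (12.1%), 1227 higher (6.15%) and 1178 lower (5.91%). In all, 1268 genes (6.36%) passed both ways in the same direction, 624 higher (3.13%) and 644 lower (3.23%), which is 86.9% of the calls made with all replicates. The arrays of the lines did not overlap for 1458 of the 1459 genes, against 25.2% of all genes. Passing the threshold itself favours such genes, so the count is no separate support. The exception was Lrrc4, named after its values were seen. With the replicate number as a block in a fit to the 6 arrays, 3152 genes passed, 15.8% of those tested. Counts below with the replicate block are read against that share. Other counts of list members are read against the shares of all genes above, and no list was tested as a set. Leaving out replicate 1 of BFC012 alone gave 2241 genes. Leaving out replicate 2 or 3 of either line, which raises the weight of replicate 1, gave 749 to 791.

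The genes furthest above in AFT024 were led by Xlr and Xist. Xlr, a lymphoid and germ cell gene of the X chromosome, measured 9.62, 9.72 and 9.69 in AFT024 and 3.38, 3.00 and 2.88 in BFC012 (difference 6.59, or 6.76 without replicate 1, SE 0.69, adjusted p = 0.000274). Xist, the RNA that silences an X chromosome in female cells, measured 9.83, 10.75 and 10.59 against 4.18, 3.72 and 4.00 (difference 6.42, or 6.81 without replicate 1, SE 0.22, adjusted p = 8.85e-08). For both genes every AFT024 array was far above every BFC012 array, replicate 1 included. The Y-linked genes Eif2s3y, Usp9y, Uty, Kdm5d and Zfy1 lay between 2.58 and 3.90 on all 6 arrays and none passed.

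Lpl, the lipase that releases fatty acids from lipoproteins, measured 7.94, 8.04 and 8.19 in AFT024 and 4.06, 4.14 and 4.07 in BFC012 (difference 3.97, or 4.01 without replicate 1, adjusted p = 1.45e-05). Ebf1, a transcription factor of B cells and of adipose and stromal precursors, measured 7.53, 7.89 and 7.83 against 3.99, 4.12 and 4.21 (difference 3.64, or 3.70 without replicate 1, adjusted p = 2.38e-05). Aim2, a cytosolic DNA sensor, measured 8.68, 8.89 and 8.80 against 4.85, 4.86 and 4.88 (difference 3.93, or 3.97 without replicate 1, adjusted p = 0.00421). In these 3 genes replicate 1 lay with its own line and the lines were widely separated. Slco2a1, a prostaglandin transporter, measured 9.47, 8.13 and 8.37 against 5.42, 5.01 and 4.55, so replicate 1 was the highest array of each line. Gria3, a glutamate receptor subunit, measured 5.88, 10.08 and 9.91 against 3.87, 4.04 and 3.75, with AFT024 replicate 1 far below its partners but still above BFC012. Its difference was 4.74 with all replicates (adjusted p = 0.0075) and 6.10 without replicate 1. Brinp3, a regulator of neural proliferation, and Bche, which encodes butyrylcholinesterase, differed by 4.72 and 4.27. Leaving out 1 of the 4 arrays of replicates 2 and 3 ended the call of Bche, with adjusted p up to 0.0688.

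The genes furthest below in AFT024 were led by Adgrl2 and Tenm3. Adgrl2, a latrophilin adhesion receptor, measured 4.99, 5.54 and 5.82 in AFT024 and 9.16, 10.78 and 10.82 in BFC012 (difference -4.81, or -5.13 without replicate 1, SE 0.40, adjusted p = 6.15e-05). Tenm3, a teneurin that binds latrophilins, measured 4.86, 5.21 and 5.80 against 9.39, 9.81 and 9.72 (difference -4.35, or -4.26 without replicate 1, SE 0.20, adjusted p = 6.2e-07). Replicate 1 was the lowest array in each line for both genes, and the lines did not overlap. Tspan8, a tetraspanin of epithelia, measured 4.09, 4.38 and 4.50 against 9.05, 7.94 and 8.0 (difference -4.01, or -3.53 without replicate 1, adjusted p = 0.00107). Here BFC012 replicate 1 was the highest array. Smarca1, a chromatin remodelling ATPase, Pde3b, a cyclic nucleotide phosphodiesterase, Eya4, a developmental cofactor, Eogt, a glycosyltransferase, and Ano1, a chloride channel, differed by -3.24, -3.23, -2.93, -2.91 and -2.85. Clca3a1, of the chloride channel accessory family, differed by -2.67, and its call ended without any of 3 arrays of replicates 2 and 3 in turn (adjusted p up to 0.0554).

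Of the cadherins, protocadherins, teneurins and latrophilins, 3 of 31 passed as higher and 5 as lower, counting Adgrl2 and Tenm3, and 4 and 6 without replicate 1. Pcdh7, a protocadherin, measured 6.30, 7.33 and 7.49 in AFT024 and 4.75, 4.73 and 4.90 in BFC012 (difference 2.25, or 2.60 without replicate 1, adjusted p = 0.000722). Adgrl3, the paralog of Adgrl2, went the other way from it, at 5.93, 6.74 and 6.78 against 4.61, 5.07 and 4.84 (difference 1.65, or 1.81 without replicate 1, adjusted p = 0.00179). Neither gene overlapped between lines.

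**Figure D1:**
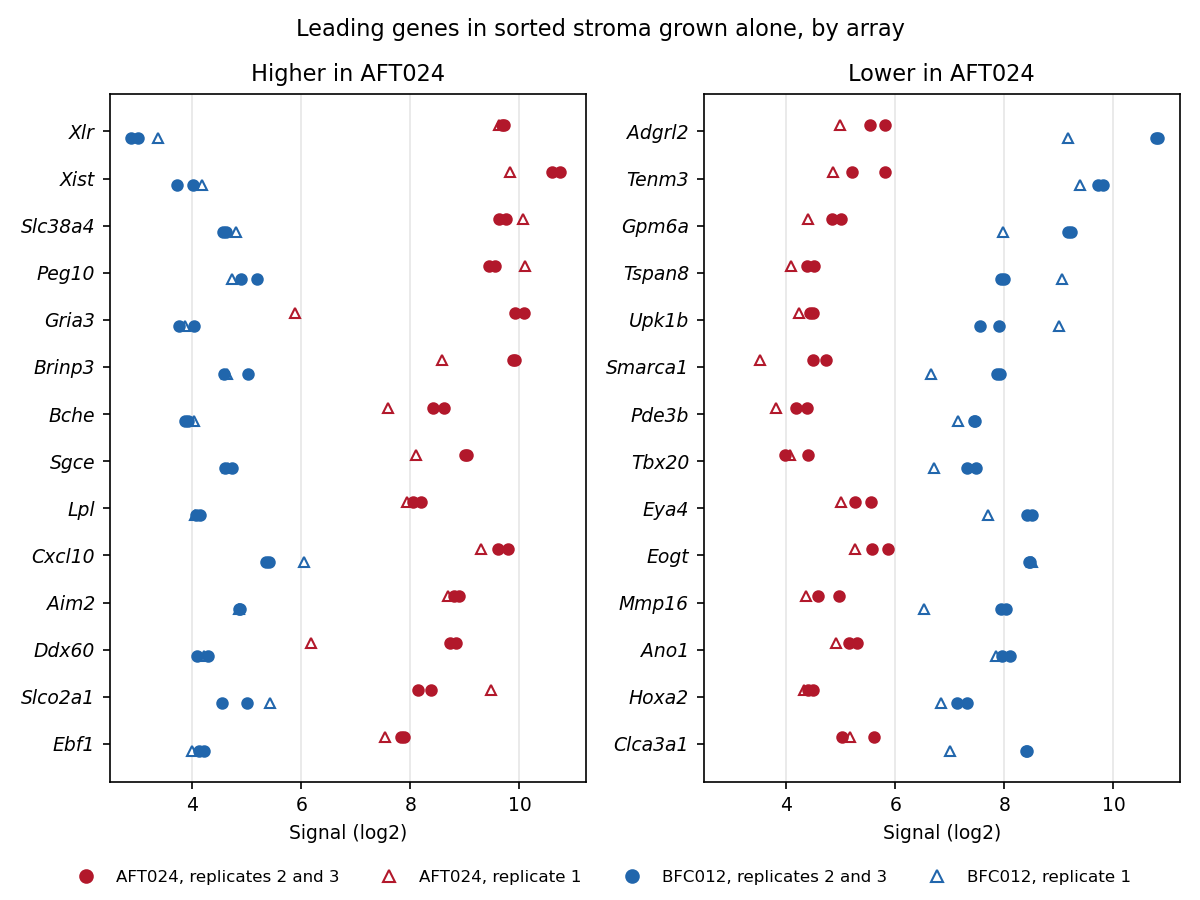
Signal on each of the 6 arrays (horizontal axis, log2) of the 14 leading genes higher in AFT024 and the 14 leading genes lower in it, AFT024 in red and BFC012 in blue, with replicate 1 of each line as an open triangle. The genes were chosen among those whose lines do not overlap; AFT024 replicate 1 falls well below its partners for Gria3 and Ddx60.

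Hox genes split by cluster. Of 37 measured, 3 passed as higher in AFT024 and 13 as lower, and the counts were the same without replicate 1, where Hoxb2 passed and Hoxb3 did not; with the replicate block 7 passed as higher and 15 as lower. In the HoxA cluster on chromosome 6, 9 of 10 genes passed as lower, with a median difference of -1.37 beside -0.046 over all genes; Hoxa13, at the end of the cluster, did not pass. In the HoxB cluster on chromosome 11, 4 of 9 passed as lower and all 9 were negative (median -0.37). In the HoxC cluster on chromosome 15, 3 of 9 passed as higher, all 9 were positive, and the median was 0.60. None of 9 HoxD genes passed (median -0.08).

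Hoxa2, a hindbrain and neural crest regulator, measured 4.33, 4.49 and 4.41 in AFT024 and 6.83, 7.32 and 7.14 in BFC012 (difference -2.69, or -2.79 without replicate 1, SE 0.12, adjusted p = 6.05e-07). Hoxa5 measured 6.04, 6.24 and 6.66 against 7.63, 9.03 and 8.98 (difference -2.23, or -2.56 without replicate 1, adjusted p = 0.00197). Hoxa11, a limb and urogenital patterning gene, measured 5.18, 5.41 and 5.17 against 7.39, 6.91 and 7.13 (difference -1.89, or -1.73 without replicate 1, adjusted p = 6.18e-05). BFC012 was higher on every array for these 3 genes. Hoxc8 measured 8.02, 8.57 and 8.54 in AFT024 and 5.04, 5.34 and 5.54 in BFC012 (difference 3.07, or 3.12 without replicate 1, SE 0.29, adjusted p = 0.00015). Hoxc6 measured 7.08, 8.54 and 8.61 against 5.17, 6.28 and 5.71 (difference 2.36, or 2.58 without replicate 1, adjusted p = 0.00678), and Hoxc13 differed by 1.41 (adjusted p = 0.000802). AFT024 was higher on every array for the HoxC genes named. Hoxb9 was lower by 1.50 on the log2 scale, at 5.72, 5.81 and 5.95 against 7.12, 7.52 and 7.35.

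The miRNA genes Mir196a-1 and Mir196b lie within the HoxB and HoxA clusters, and their main arms share a seed, the bases 2 to 8 that pair with targets. They are shown here because they passed in the same direction as the Hox genes around them; the sequences are from RefSeq (GRCm38.p6, plus strand of chr11:96265187-96265208 and minus strand of chr6:52230129-52230150), 5′ to 3′, with the seed in capitals.
mmu-miR-196a-5p: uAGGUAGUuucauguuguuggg
mmu-miR-196b-5p: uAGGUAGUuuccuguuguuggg

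The probe sets detect the precursors' region and not the mature strands. Mir196a-1 measured 4.02, 3.95 and 4.00 in AFT024 and 4.56, 5.06 and 5.15 in BFC012 (difference -0.93, or -1.13 without replicate 1, SE 0.15, adjusted p = 0.00386). Mir196b measured 4.60, 5.05 and 4.76 against 5.23, 5.25 and 5.39 (difference -0.48, or -0.41 without replicate 1, SE 0.11, adjusted p = 0.0226), and leaving out AFT024 replicate 1 or 3, or BFC012 replicate 2 or 3, ended its call (adjusted p up to 0.0937). For each gene the arrays of the lines did not overlap.

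**Figure D2:**
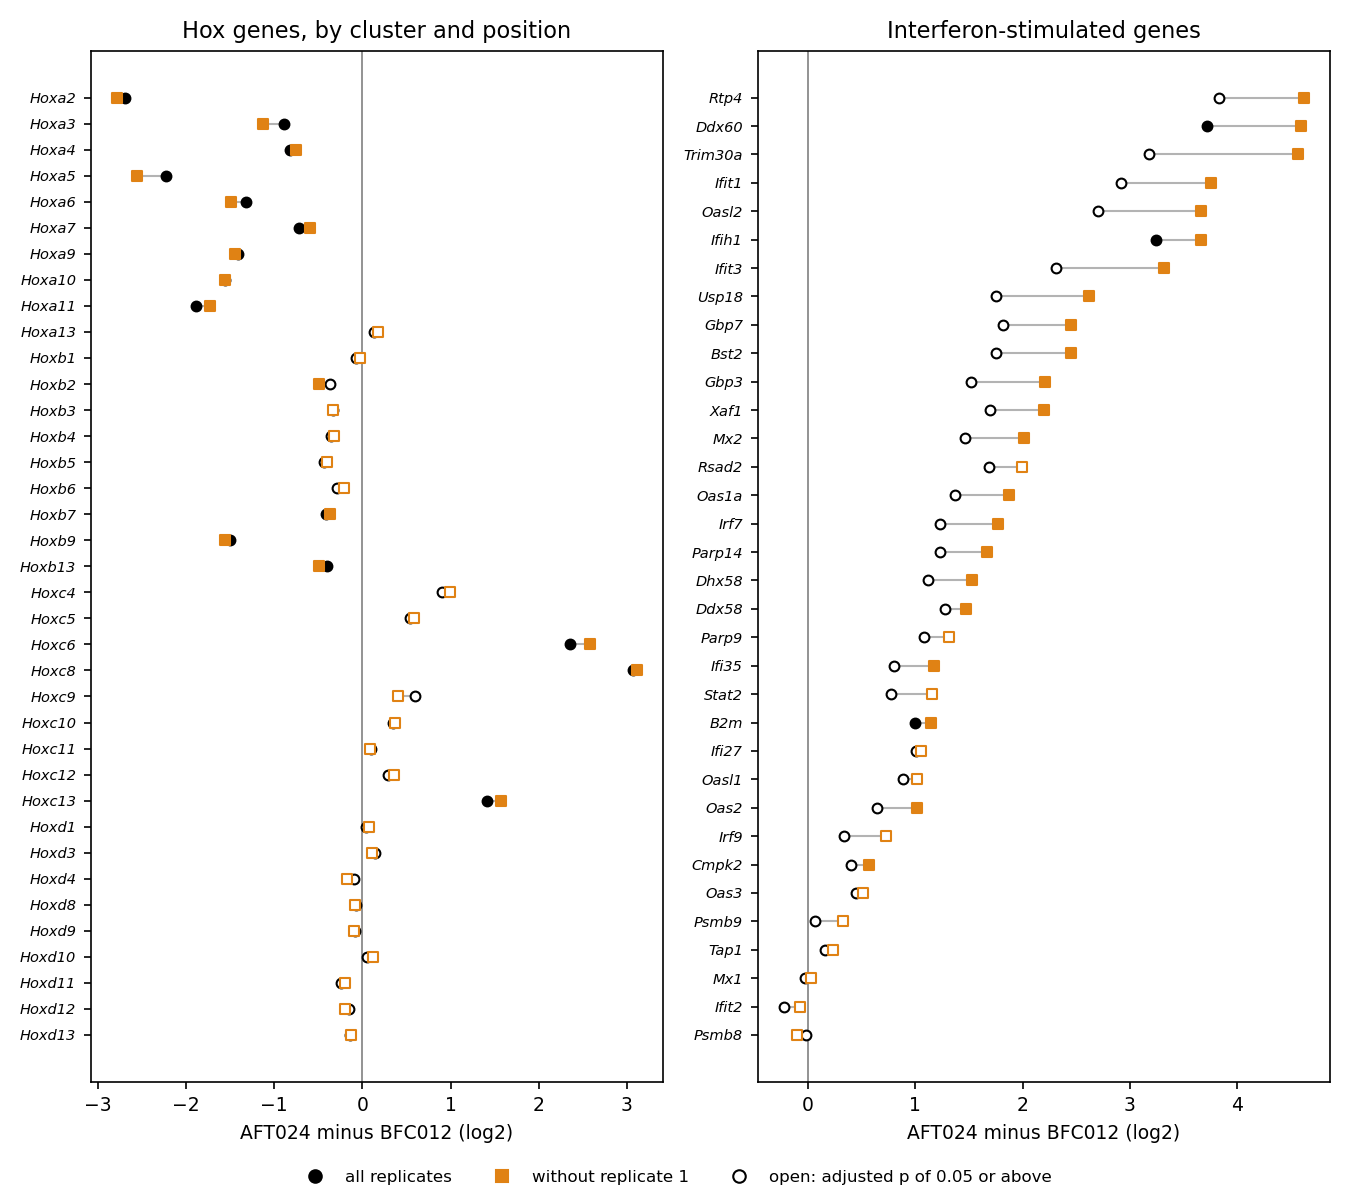
Difference between the lines (horizontal axis, AFT024 minus BFC012, log2) for 37 Hox genes in cluster order and 34 interferon-stimulated genes, with all replicates (black circles) and without replicate 1 of both lines (orange squares); open symbols did not pass. The Hox differences hardly move when replicate 1 is left out, whereas 33 of the 34 interferon-stimulated genes move to the right.

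Other transcription factors of mesoderm moved in both directions: 5 of 50 passed as higher and 7 as lower (all genes 3.51% and 3.81%). Without replicate 1, 5 and 9 passed (all genes 6.15% and 5.91%), and 6 and 11 with the replicate block. Foxc2, a mesenchymal and lymphatic regulator, measured 8.19, 8.16 and 8.20 in AFT024 and 5.11, 5.13 and 5.57 in BFC012 (difference 2.91, or 2.83 without replicate 1, adjusted p = 1.23e-05). Foxd1, a factor of renal stroma, measured 7.01, 6.64 and 7.19 against 4.41, 4.33 and 4.09 (difference 2.67, or 2.70 without replicate 1, adjusted p = 1.97e-05). The 3 arrays of each line were close together for both genes. Tbx20, a heart and lateral mesoderm factor, measured 4.07, 3.98 and 4.40 against 6.72, 7.32 and 7.48 (difference -3.02, or -3.21 without replicate 1, adjusted p = 0.000207). Gata6 measured 6.55, 6.86 and 7.22 against 8.66, 9.60 and 9.56 (difference -2.40, or -2.54 without replicate 1, adjusted p = 0.000274), and Foxf1, a target of Hedgehog signalling in visceral mesoderm, 6.18, 6.20 and 6.15 against 7.88, 8.76 and 8.73 (difference -2.28, or -2.57 without replicate 1, adjusted p = 5.27e-05). BFC012 was higher on each array for all 3.

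Some markers of mesothelium, the epithelial covering of the liver and other organs, passed as lower in AFT024. Of 28 epithelial and mesothelial markers, 0 passed as higher and 9 as lower, and 0 and 8 without replicate 1; 8 of the 28 had positive differences. The median difference of the list was -0.12. Upk3b, a uroplakin of mesothelium, measured 5.44, 5.63 and 5.81 in AFT024 and 8.34, 8.04 and 8.01 in BFC012 (difference -2.50, or -2.31 without replicate 1, adjusted p = 0.000331). Upk1b measured 4.24, 4.44 and 4.50 against 9.0, 7.89 and 7.56 (difference -3.76, or -3.26 without replicate 1, adjusted p = 0.000182). Wt1, the transcription factor of mesothelium, measured 5.81, 6.02 and 5.89 against 7.17, 7.26 and 7.21 (difference -1.31, or -1.28 without replicate 1, adjusted p = 0.0026). No array of AFT024 reached the BFC012 range in these genes.

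Gpm6a, a membrane glycoprotein of neurons and mesothelium, differed by -4.04, Cdh3, or P-cadherin, by -2.28, and Bnc1, basonuclin, by -1.67. The list did not move as a whole. Krt8, a simple epithelial keratin, measured 7.62, 7.70 and 7.43 in AFT024 and 7.41, 7.51 and 7.57 in BFC012 (adjusted p = 0.705). Epcam measured 4.21 to 4.43 and 4.20 to 4.43 (adjusted p = 0.989), and Msln, mesothelin, measured 7.93, 6.50 and 6.39 in AFT024 against 6.20, 6.12 and 6.26 (adjusted p = 0.447), higher on each AFT024 array. For Krt8 and Epcam the lines overlapped.

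Imprinted genes, expressed from 1 parental allele and often active in fetal growth, held 3 of the 8 largest differences above. Of 23 measured, 6 passed as higher and 1 as lower, 7 and 2 without replicate 1, and 7 and 3 with the replicate block. Slc38a4, an amino acid transporter expressed from the paternal allele, measured 10.07, 9.62 and 9.76 in AFT024 and 4.80, 4.61 and 4.55 in BFC012 (difference 5.16, or 5.10 without replicate 1, SE 0.12, adjusted p = 3.47e-09). The neighbouring genes Peg10 and Sgce on chromosome 6 measured 10.11, 9.44 and 9.55 against 4.72, 4.90 and 5.19 (difference 4.76, or 4.45 without replicate 1), and 8.11, 8.99 and 9.05 against 4.66, 4.73 and 4.59 (difference 4.06, or 4.36 without replicate 1). All 3 were far higher in AFT024 on every array.

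Dlk1, a non-canonical Notch ligand of fetal liver and adipocyte precursors, measured 8.49, 9.23 and 9.22 in AFT024 and 6.58, 6.43 and 6.46 in BFC012 (difference 2.49, or 2.78 without replicate 1, adjusted p = 0.00147). Ndn, which encodes the growth suppressor necdin, was the 1 imprinted gene lower in AFT024, at 4.88, 4.69 and 4.72 against 6.92, 7.49 and 7.42 (difference -2.51, or -2.75 without replicate 1, adjusted p = 0.000103). Igf2, the fetal growth factor, measured 5.73, 6.63 and 6.55 against 5.54, 6.75 and 6.87 and did not pass (adjusted p = 0.947). Meg3 lay between 5.36 and 5.61 on all arrays. The arrays overlapped for Igf2 and Meg3.

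Genes of the insulin-like growth factor axis passed in both directions. Of 23 genes 4 passed as higher and 2 as lower (all genes 3.51% and 3.81%). Without replicate 1, 5 and 3 passed (all genes 6.15% and 5.91%), and 7 and 3 with the replicate block. Igfbp7 measured 9.33, 9.65 and 9.75 in AFT024 and 7.19, 6.72 and 6.73 in BFC012 (difference 2.70, or 2.98 without replicate 1, adjusted p = 2.96e-05). Igfbp6, which prefers IGF2, measured 9.20, 7.84 and 8.14 against 6.34, 6.27 and 6.35 (difference 2.07, or 1.68 without replicate 1, adjusted p = 0.00147), and Igfbp5 differed by 1.42 (adjusted p = 0.0103). The receptor Igf1r measured 6.59, 6.67 and 6.73 against 7.63, 7.87 and 7.80 (difference -1.11, or -1.14 without replicate 1, adjusted p = 0.00147). These 3 binding proteins were higher, and the receptor lower, on every AFT024 array, but another binding protein, Igfbp4, was lower (difference -0.48, or -0.53 without replicate 1, adjusted p = 0.0361). Irs1, the receptor substrate, differed by 0.83 (adjusted p = 0.0297). The call of Igfbp4 ended when any of 5 single arrays was left out, and that of Irs1 when AFT024 replicate 2 or 3 was. The ligand Igf1 did not pass (difference 0.37, or 0.41 without replicate 1, adjusted p = 0.35).

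Factors known to act on blood progenitors were mixed. Of 41 niche factors 5 passed as higher and 2 as lower with all replicates, beside 3.51% and 3.81% of all genes. Without replicate 1, 6 and 3 passed, beside 6.15% and 5.91%, and 10 and 5 with the replicate block in the 6-array fit. Il15, a cytokine for natural killer and memory T cells, measured 5.12, 7.04 and 6.78 in AFT024 and 4.18, 4.37 and 3.78 in BFC012 (difference 2.21, or 2.84 without replicate 1, SE 0.39, adjusted p = 0.00695). Csf1, the macrophage growth factor, measured 8.76, 8.14 and 8.15 against 7.57, 7.39 and 7.56 (difference 0.84, or 0.67 without replicate 1, adjusted p = 0.0153; 0.0648 without BFC012 replicate 2). Both were higher on each AFT024 array.

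Jag1, a Notch ligand, measured 4.70, 5.16 and 5.19 in AFT024 and 5.39, 7.71 and 7.47 in BFC012. Its difference was -1.84 with all replicates (adjusted p = 0.035) and -2.42 without replicate 1 (adjusted p = 4.59e-06), and leaving out any array but BFC012 replicate 1 ended the call (adjusted p up to 0.135). Of 21 Notch pathway genes 1 passed as higher, Dlk1, and 1 as lower, Jag1, 1 and 3 without replicate 1, and 1 and 2 with the replicate block. The central factors of the niche did not pass with all replicates. Cxcl12, the chemokine that retains stem cells, measured 8.50, 9.98 and 9.89 against 9.36, 9.84 and 9.84 (difference -0.22, or 0.09 without replicate 1, adjusted p = 0.789). Kitl, or stem cell factor, measured 7.42, 7.41 and 7.44 against 6.22, 7.47 and 7.70 (difference 0.29, or -0.16 without replicate 1, adjusted p = 0.696). In both genes the lines overlapped and BFC012 replicate 1 was that line's lowest array.

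Ptn, pleiotrophin, a secreted regulator of stem cells, depended on replicate 1. It measured 10.06, 11.61 and 11.43 in AFT024 and 8.27, 10.37 and 10.40 in BFC012. The difference was 1.35 with all replicates (adjusted p = 0.169) and 1.14 without replicate 1 (adjusted p = 0.00379), so the smaller difference passed once the offset arrays were left out. Postn, the matricellular protein periostin, measured 5.99, 9.82 and 9.79 against 4.62, 7.41 and 7.59, with differences of 1.99 and 2.30 (adjusted p = 0.31 and 0.0177). With the replicate block Ptn and Postn passed with all replicates (adjusted p = 0.00251 and 0.00167).

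Chemokine and cytokine genes passed as higher with all replicates, and in both directions without replicate 1. Of 42 chemokine, cytokine and NF-kB target genes 10 passed as higher and 0 as lower with all replicates, and 11 and 3 without replicate 1, the 3 being Cxcl15, Il33 and Vcam1. Ccl5, a T cell and monocyte attractant, measured 9.42, 10.82 and 10.84 in AFT024 and 6.94, 6.88 and 6.74 in BFC012 (difference 3.51, or 4.02 without replicate 1, SE 0.60, adjusted p = 0.00546). Cxcl10, an interferon-inducible chemokine, measured 9.30, 9.61 and 9.79 against 6.04, 5.40 and 5.36 (difference 3.96, or 4.32 without replicate 1, adjusted p = 0.015), and its call ended without any 1 of replicates 2 and 3 (adjusted p up to 0.0605). Cxcl5, a neutrophil chemokine, measured 6.30, 6.51 and 6.38 against 4.05, 3.96 and 4.11 (difference 2.36, or 2.41 without replicate 1, adjusted p = 0.012). Each was higher on all 3 AFT024 arrays.

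Ccl2, the monocyte chemokine, measured 10.17, 9.03 and 9.41 in AFT024 and 8.27, 7.25 and 8.22 in BFC012 (difference 1.62, or 1.48 without replicate 1, adjusted p = 0.0111). A pair of cytokine genes, named after their values were seen, showed how far BFC012 replicate 1 could lie from its line. Cxcl15 measured 3.68 on that array and 10.14 and 10.01 on the others, against 3.54, 4.29 and 4.62 in AFT024. Il33, an epithelial and stromal alarmin, measured 4.72, 8.14 and 8.25 against 4.75, 4.95 and 5.13. With all replicates neither passed (adjusted p = 0.115 and 0.117), and without replicate 1 both were lower in AFT024, with differences of -5.62 and -3.16 (adjusted p = 5.92e-07 and 4.19e-05).

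Interferon-stimulated genes were the group whose call depended most on replicate 1. Of 34 measured, 31 were positive and the median difference was 1.23, yet 3 passed as higher and 0 as lower with all replicates. Without replicate 1, 22 passed as higher and 0 as lower, and the median was 1.60. With the replicate block in the 6-array fit 22 passed as higher, with the block in the 12 arrays 14, and in the 6 arrays without it 5. In the confluent cultures 28 of the 34 passed as higher and 0 as lower, with a median of 1.22, where 28.5% of all genes passed. When single arrays were left out the count lay between 2 and 23. The 3 genes that passed with all replicates were Ddx60, Ifih1 and B2m. Ifih1, the double-stranded RNA sensor MDA5, measured 7.25, 8.59 and 8.74 in AFT024 and 4.85, 4.91 and 5.11 in BFC012 (difference 3.24, or 3.66 without replicate 1, SE 0.44, adjusted p = 0.00138). Ddx60, a helicase of RNA sensing, measured 6.17, 8.83 and 8.73 against 4.21, 4.09 and 4.29 (difference 3.71, or 4.59 without replicate 1, SE 0.92, adjusted p = 0.0326), and its call ended without any 1 of replicates 2 and 3 (adjusted p up to 0.123). B2m, the light chain of MHC class I, measured 11.17, 11.82 and 11.80 against 10.47, 10.62 and 10.70 (difference 1.00, or 1.15 without replicate 1, adjusted p = 0.00363). All 3 genes were higher on each AFT024 array, and AFT024 replicate 1 was that line's lowest.

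In other members AFT024 replicate 1 lay nearer to BFC012. Rtp4, a chaperone induced by interferon, measured 6.27, 9.87 and 9.82 in AFT024 and 4.01, 5.21 and 5.25 in BFC012 (difference 3.83, adjusted p = 0.0574; 4.62 and 0.0128 without replicate 1). Trim30a, a ubiquitin ligase, measured 5.51, 10.26 and 10.22 against 5.12, 5.85 and 5.50 (difference 3.17, adjusted p = 0.0998; 4.57 and 0.00055 without replicate 1). Ifit1, which binds viral RNA ends, measured 6.61, 9.66 and 9.64 against 5.36, 6.00 and 5.80 (difference 2.92, adjusted p = 0.0828; 3.75 and 0.0173). With the replicate block Rtp4, Trim30a, Ifit1 and Irf7 passed (adjusted p = 0.00307, 0.0381, 0.00987 and 0.0406). For Trim30a replicate 1 of AFT024 fell within the range of BFC012. Irf7, the factor that amplifies interferon production, measured 5.18, 6.83 and 6.88 against 5.03, 5.04 and 5.14 and passed without replicate 1 (difference 1.77, adjusted p = 0.0122). Its partners Irf9 and Stat2 passed neither with nor without replicate 1 (adjusted p = 0.219 and 0.0928 without it). The antigen-processing genes Tap1, Psmb8 and Psmb9 did not pass either way.

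Many interferon-induced genes carry a short promoter motif, the interferon-stimulated response element. RefSeq promoter windows (GRCm38.p6, from 250 bases before to 50 after a gene's start) were searched on both strands for the letters GAAA, any 2 bases and GAAA again. The motif was in 3.44% of 32851 windows, and in 607 of 15614 measured genes with a window (3.89%). Of the 25 listed interferon-stimulated genes with a window 14 held it: 11 of 16 that passed without replicate 1 and 3 of 9 that did not. A match is a description of letters and not of binding. The stretches of 4 genes are shown, 5′ to 3′ on the strand of the gene with the motif in capitals: Ddx60 and B2m, which passed with all replicates, and Trim30a and Ifit1, which did not pass until replicate 1 was left out. These 4 were picked from the genes that held the motif, and no stretch is shown for Ifih1, which also passed with all replicates. TTTC, any 2 bases and TTTC is the motif read on the opposite strand. The stretches lie at chr8:61927999-61928086 (plus strand), chr2:122147513-122147592 (plus), chr7:104465194-104465264 (minus) and chr19:34640750-34640848 (plus).
Ddx60: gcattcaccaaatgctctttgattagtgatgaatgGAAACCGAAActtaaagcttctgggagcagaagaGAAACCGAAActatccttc
B2m: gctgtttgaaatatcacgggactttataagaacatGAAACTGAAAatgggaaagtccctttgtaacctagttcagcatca
Trim30a: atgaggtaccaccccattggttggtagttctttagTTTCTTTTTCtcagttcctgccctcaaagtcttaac
Ifit1: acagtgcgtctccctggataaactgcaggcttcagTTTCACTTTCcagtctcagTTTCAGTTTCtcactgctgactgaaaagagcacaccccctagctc

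The offsets of replicate 1, taken as replicate 1 minus the mean of replicates 2 and 3 in each line and given with no test, were shared by the lines. In AFT024 616 genes were offset at least 2-fold and in BFC012 798. Of these, 318 were offset the same way in both lines, 141 up (0.707% of genes) and 177 down (0.888%), and 0 in opposite ways. Between replicates 2 and 3, 3 genes differed at least 2-fold in AFT024 (Atf3, Ifi214 and Olfr1372-ps1) and 2 in BFC012 (Olfr1166 and Scgb1a1).

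Among the genes furthest below in replicate 1 of both lines were C1s1, Mgp and Ogn. C1s1, a complement protease, measured 4.76, 8.78 and 8.95 in AFT024 and 4.47, 8.52 and 8.50 in BFC012. Mgp, matrix Gla protein, measured 7.06, 10.81 and 10.78 against 6.44, 10.24 and 10.29, and Ogn, osteoglycin, 6.82, 10.07 and 10.07 against 6.77, 9.27 and 9.15. The difference between the lines did not pass with all replicates, but did with the replicate block for C1s1 and Mgp (adjusted p = 0.0467 and 0.00725) and without replicate 1 for Ogn (0.0137). In all 3 genes replicate 1 was far below the other arrays of its line, while the lines themselves were close. Of 23 p53 target and senescence genes 20 were lower in replicate 1 of both lines, as were 6965 of all 19938 genes, and 8 at least 2-fold, with median offsets of -1.02 in AFT024 and -0.56 in BFC012. Fas, the death receptor, measured 5.63, 8.37 and 8.24 against 5.47, 8.79 and 8.64, Btg2, an antiproliferative gene, 6.71, 9.66 and 9.72 against 6.44, 9.34 and 9.54, and Mdm2, the ubiquitin ligase of p53, 8.91, 11.12 and 10.93 against 9.35, 10.69 and 10.60. Of 33 proteoglycans and matricellular genes 24 were lower in replicate 1 of both lines and 8 at least 2-fold.

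Among the genes furthest above in replicate 1 of both lines were Nqo1, Dkc1 and Ddx21. Nqo1, a quinone reductase controlled by Nrf2, measured 9.07, 6.39 and 6.64 in AFT024 and 7.50, 5.28 and 4.98 in BFC012. Dkc1, dyskerin of small nucleolar ribonucleoproteins, measured 9.49, 7.92 and 8.02 against 9.12, 7.58 and 7.42, and Ddx21, a nucleolar helicase, 8.95, 7.35 and 7.38 against 9.30, 7.74 and 7.74. Replicate 1 was the highest array of each line for these genes. The line difference of Nqo1, Dkc1 and Ddx21 did not pass with all replicates and did with the replicate block (adjusted p = 0.000995, 0.0241 and 0.0258). Without replicate 1, Nqo1 and Ddx21 passed (adjusted p = 0.01015 and 0.0413) and Dkc1 did not (0.153). Of all 19938 genes 6447 were higher and 6965 lower in replicate 1 of both lines. Of 39 cell cycle genes 36 were higher in replicate 1 of both lines and 7 at least 2-fold, with median offsets of 0.60 and 1.08. Ccna2, cyclin A2, measured 9.53, 8.16 and 8.43 against 9.69, 8.25 and 8.12. Over all genes the median offsets were -0.013 and -0.001. Interferon-stimulated genes were offset mainly in AFT024, with a median of -1.42 there and -0.21 in BFC012, and 28 of 34 were negative in both. What set replicate 1 apart was not tested.

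**Figure D3:**
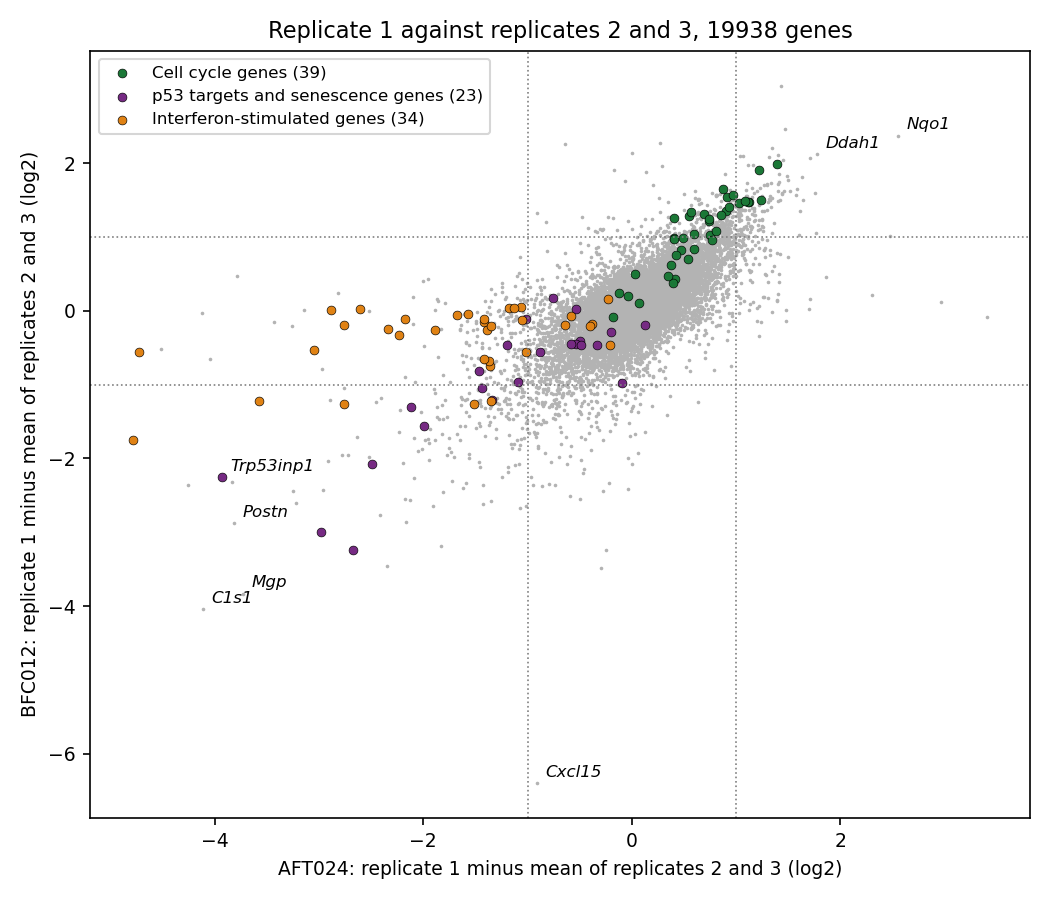
Offset of replicate 1 from the mean of replicates 2 and 3 in AFT024 (horizontal axis) and in BFC012 (vertical axis), log2, for 19938 genes; dotted lines mark 2-fold. Cell cycle genes (green) sit to the upper right, p53 targets (purple) to the lower left, and interferon-stimulated genes (orange) spread along the AFT024 axis.

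Between the lines themselves, calls in the cell cycle and p53 lists are set beside the shares of all genes. With all replicates these shares were 3.51% higher and 3.81% lower, and without replicate 1 they were 6.15% and 5.91%. Of 39 cell cycle genes 1 passed as higher and 0 as lower, 4 and 0 without replicate 1, and 3 and 0 with the replicate block. The 1 gene was Mcm6, a subunit of the replicative helicase, at 9.46, 9.44 and 9.35 in AFT024 and 8.91, 8.86 and 8.76 in BFC012 (difference 0.57, or 0.58 without replicate 1, adjusted p = 0.00222). Mki67 overlapped between lines (adjusted p = 0.874). Of 23 p53 target and senescence genes 0 passed as higher and 2 as lower, but 5 and 2 without replicate 1 and 3 and 3 with the replicate block. The 2 lower genes were cell cycle inhibitors. The 5 higher ones, Pmaip1, Cdkn2b, Phlda3, Cdkn2a and Gtse1, differed by 0.60 to 1.06 without replicate 1; of them Cdkn2b and Phlda3 also passed with the replicate block (adjusted p = 0.0095 and 0.0256). Cdkn1b, which encodes p27, measured 7.15, 7.64 and 7.63 against 8.94, 9.36 and 9.44 (difference -1.77 with and without replicate 1, SE 0.25, adjusted p = 0.00197). Cdkn2c, which encodes p18, differed by -1.12 (adjusted p = 0.0125; 0.0568 without BFC012 replicate 2). For both inhibitors all AFT024 arrays were below all BFC012 arrays.

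Cholesterol synthesis genes, which depend on SREBP factors, were a group with unequal offsets. Of 27, 5 passed as higher and 0 as lower with all replicates, 12 and 0 without replicate 1, and 9 and 0 with the replicate block; the median differences were 0.32 and 0.55 with and without replicate 1. Hmgcs1, at the entry to the pathway, measured 8.31, 8.48 and 8.51 in AFT024 and 7.94, 7.14 and 6.94 in BFC012 (difference 1.10, or 1.46 without replicate 1, adjusted p = 0.0115; 0.0526 without BFC012 replicate 2). Msmo1, a later sterol oxidase, measured 9.0, 8.91 and 9.08 against 8.94, 6.88 and 6.72 (difference 1.49, adjusted p = 0.143; 2.20 and 0.01 without replicate 1). AFT024 arrays were level, and BFC012 replicate 1 lay near AFT024. When single arrays were left out the count of the list lay between 0 and 13. In the confluent cultures 4 of the 27 passed as higher and 2 as lower, with a median of -0.04, where 28.5% of all genes passed. With KLS cells 1 passed as higher and 2 as lower, where 11.6% of all genes passed.

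**Figure D4:**
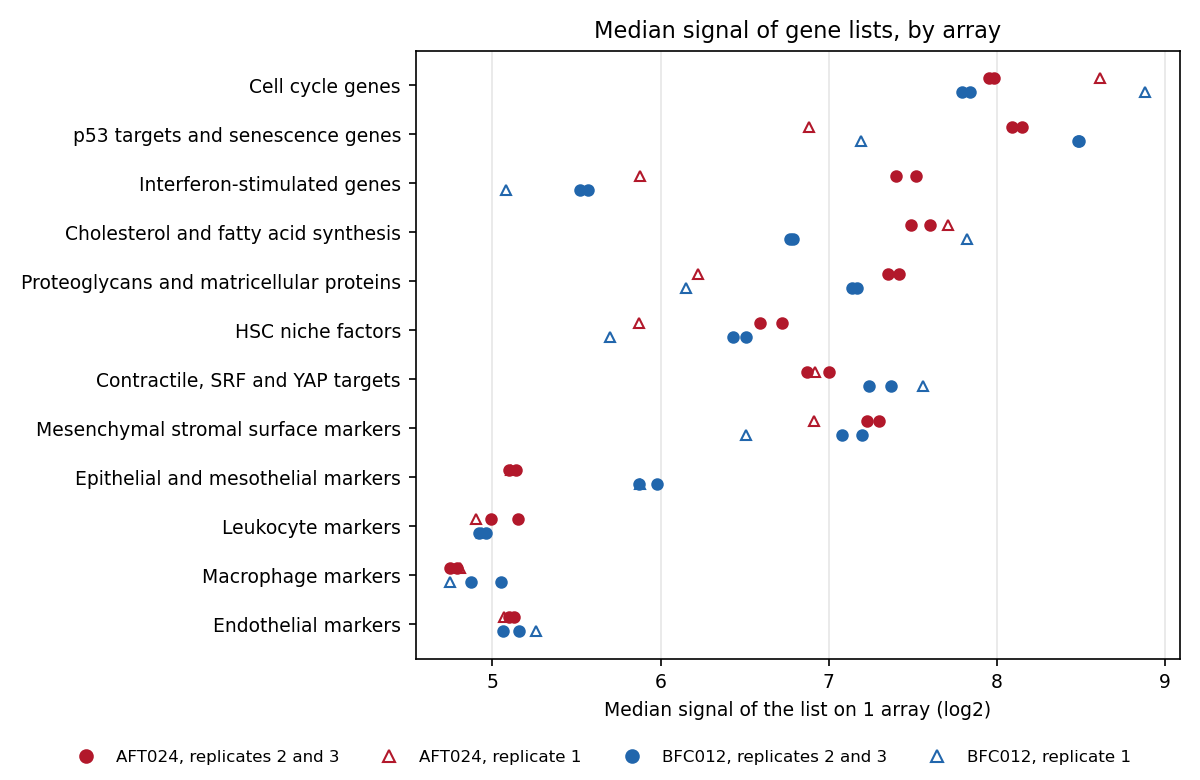
Median signal of 12 gene lists (horizontal axis, log2) on each of the 6 arrays, AFT024 in red and BFC012 in blue, replicate 1 as an open triangle. Replicate 1 is the highest array of its line for cell cycle genes and the lowest for p53 targets, matricellular genes and niche factors; leukocyte, macrophage and endothelial markers stay near 5 on every array.

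Matrix genes are given by class, beside 3.51% of all genes higher and 3.81% lower with all replicates (6.15% and 5.91% without replicate 1). Of 19 basement membrane and laminin genes 3 passed as higher and 0 as lower, and 2 and 0 without replicate 1. Of 19 interstitial collagens 5 passed as higher and 0 as lower, and 6 and 1 both without replicate 1 and with the replicate block. Col6a3, a chain of the microfibrillar collagen VI, measured 8.29, 9.40 and 9.38 in AFT024 and 5.86, 6.62 and 6.69 in BFC012 (difference 2.63, or 2.73 without replicate 1, SE 0.31, adjusted p = 0.00065). Col8a1 differed by 1.74 (adjusted p = 0.0147; up to 0.0632 without AFT024 replicate 2 or 3), and Col1a2 measured 6.69, 6.64 and 6.71 against 5.93, 5.96 and 6.13 (difference 0.67, or 0.63 without replicate 1, adjusted p = 0.00151). Col3a1, the other main fibrillar chain, overlapped between lines (difference 0.37, or 0.22 without replicate 1, adjusted p = 0.561). Of 33 proteoglycans and matricellular genes 5 passed as higher and 0 as lower with all replicates, 9 and 5 without replicate 1, and 11 and 3 with the replicate block.

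Efemp1, fibulin 3, measured 9.71, 11.18 and 11.06 in AFT024 and 6.84, 8.65 and 8.43 in BFC012 (difference 2.68, or 2.58 without replicate 1, adjusted p = 0.00575). Tgfbi, a TGF-beta-induced adhesion protein, measured 7.27, 8.45 and 8.48 against 5.83, 6.01 and 5.84 (difference 2.17, or 2.54 without replicate 1, adjusted p = 0.0007). Both were separated by line in spite of a low replicate 1. Dcn, decorin, showed the reverse order, at 5.81, 7.97 and 8.35 against 8.31, 11.79 and 11.76. Its difference was -3.24 with all replicates (adjusted p = 0.0506) and -3.61 without replicate 1 (adjusted p = 0.00019), and it passed with the replicate block (adjusted p = 0.000481). AFT024 replicate 3 reached BFC012 replicate 1.

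Of 42 matrix proteases and inhibitors 3 passed as higher and 5 as lower (all genes 3.51% and 3.81%). Without replicate 1, 4 and 6 passed (all genes 6.15% and 5.91%), and 8 and 6 with the replicate block. Mmp2, gelatinase A, measured 7.53, 9.09 and 9.18 in AFT024 and 5.64, 5.56 and 5.81 in BFC012 (difference 2.93, or 3.45 without replicate 1, SE 0.36, adjusted p = 0.000762). Mmp16, a membrane-bound activator of Mmp2, ran the other way, at 4.36, 4.59 and 4.97 against 6.53, 8.04 and 7.94 (difference -2.86, or -3.21 without replicate 1, SE 0.34, adjusted p = 0.00065). Neither overlapped between lines. Adamts9, a versican-cleaving protease, measured 5.58, 5.85 and 5.85 against 6.21, 8.59 and 8.73 (difference -2.08, or -2.81 without replicate 1, adjusted p = 0.0398), and its call ended without any array but BFC012 replicate 1 (adjusted p up to 0.151).

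Surface markers and receptors also set the lines apart. Of 28 mesenchymal markers 8 passed as higher and 4 as lower, and 10 and 5 without replicate 1. Itga6, the laminin receptor chain, measured 8.84, 8.09 and 8.42 in AFT024 and 6.51, 5.69 and 5.94 in BFC012 (difference 2.40, or 2.44 without replicate 1, adjusted p = 9.65e-05). Nes, the filament nestin, measured 6.98, 6.78 and 6.95 against 5.05, 4.95 and 4.94 (difference 1.93, or 1.92 without replicate 1, adjusted p = 5.2e-06). Eng, endoglin, a TGF-beta co-receptor, measured 5.54, 5.52 and 5.45 against 6.25, 6.61 and 6.36 (difference -0.91, or -1.0 without replicate 1, adjusted p = 0.000802). No marker named here overlapped between lines. Pdgfra and Pdgfrb, receptors that define mesenchymal cells, did not pass (adjusted p = 0.69 and 0.536).

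Of 38 growth factors and receptors 2 passed as higher and 3 as lower (all genes 3.51% and 3.81%). Without replicate 1, 5 and 4 passed (all genes 6.15% and 5.91%), and 6 and 4 with the replicate block. Vegfc, the lymphatic growth factor, measured 6.48, 6.99 and 7.07 in AFT024 and 4.98, 4.92 and 5.26 in BFC012 (difference 1.80, or 1.94 without replicate 1, adjusted p = 0.000585), and its co-receptor Nrp2 7.91, 7.92 and 8.03 against 6.26, 6.62 and 6.66 (difference 1.44, or 1.33 without replicate 1, adjusted p = 0.000761). Fgfr2 differed by -1.44 (adjusted p = 0.0207; up to 0.0886 without 1 array). In the Wnt pathway 3 of 50 passed as higher and 6 as lower (all genes 3.51% and 3.81%). Without replicate 1, 1 and 9 passed (all genes 6.15% and 5.91%), and 5 and 9 with the replicate block. The receptors Ror1 and Fzd6 measured 5.70, 5.30 and 5.29 against 6.55, 6.82 and 6.90 (difference -1.33, or -1.57 without replicate 1, adjusted p = 0.00151), and 7.32, 6.73 and 7.05 against 8.20, 8.39 and 8.23 (difference -1.24, or -1.42 without replicate 1, adjusted p = 0.00292). Lef1, a nuclear effector of Wnt, differed by 0.76 (adjusted p = 0.00383). These receptors were lower and this effector higher in AFT024.

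Of 29 adipocyte genes 6 passed as higher and 0 as lower, Lpl and Ebf1 among them, and 8 and 3 both without replicate 1 and with the replicate block. Pparg, the master regulator of adipocytes, measured 9.02, 8.36 and 8.59 in AFT024 and 7.43, 6.60 and 7.0 in BFC012 (difference 1.65, or 1.68 without replicate 1, adjusted p = 0.000761). Fabp4, its fatty acid-binding target, measured 6.86, 7.14 and 7.49 against 5.61, 5.82 and 5.67 (difference 1.46, or 1.57 without replicate 1, adjusted p = 0.00905). Every AFT024 array was higher for both. Adipoq and Cebpa, which mark later adipocytes, did not pass (adjusted p = 0.863 and 0.828).

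Contractile genes depended on the fit. Of 28 contractile genes and SRF or YAP targets 0 passed as higher and 6 as lower, 1 and 4 without replicate 1, and 3 and 7 with the replicate block. Acta2, smooth muscle actin, measured 7.0, 7.20 and 7.45 in AFT024 and 9.70, 8.78 and 8.88 in BFC012. Its difference was -1.91 with all replicates (adjusted p = 0.0401) and -1.51 without replicate 1 (adjusted p = 0.135), and leaving out any 1 of the 6 arrays ended the call (adjusted p 0.0781 to 0.11). The lines did not overlap for Acta2. Myl9, the myosin light chain, differed by -1.32 and -0.84 (adjusted p = 0.0302 and 0.0517).

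Glycolysis, metallothionein and unfolded protein response genes passed in both directions. The shares of all genes were 3.51% higher and 3.81% lower with all replicates, and 6.15% and 5.91% without replicate 1. Of 34 glycolysis and hypoxia genes 4 passed as higher and 3 as lower, 9 and 4 without replicate 1, and 10 and 5 with the replicate block. Pgk1 measured 11.53, 11.77 and 11.72 in AFT024 and 10.80, 9.93 and 9.69 in BFC012 (difference 1.53, or 1.93 without replicate 1, adjusted p = 0.00538). Nupr1, a stress-induced chromatin protein, measured 9.39, 9.18 and 9.20 against 7.38, 6.86 and 6.86 (difference 2.22, or 2.32 without replicate 1, adjusted p = 1.49e-05). Mt1, a metallothionein, measured 9.48, 10.10 and 10.07 against 9.19, 8.72 and 8.52 (difference 1.07, or 1.46 without replicate 1, adjusted p = 0.00945). These 3 genes were higher on each AFT024 array. Of 27 metallothionein and Nrf2 genes 4 passed as higher and 3 as lower, and 7 and 3 without replicate 1. With the replicate block 12 and 3 of them passed. Of 34 unfolded protein and amino acid response genes 1 passed as higher and 1 as lower, and 2 and 1 without replicate 1. With the replicate block 5 and 4 of them passed. Each list in this paragraph thus also held calls lower in AFT024.

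Among 296 miRNA genes 0 passed as higher and 9 as lower with all replicates, and 2 and 11 without replicate 1; 8 passed as lower both ways. The share of miRNA genes that passed as lower was 3.04% with all replicates, against 3.81% of all genes, and 2.70% both ways, against 3.23%, below the share of all genes in each case. Of the 296, 158 had a mean signal below the first quartile of all genes, where changes are compressed. Besides the Mir196 genes, these 8 held Mir18, Mir19b-1 and Mir20a, which lie in 1 cluster on chromosome 14, the paralog Mir106b, and Mir218-2 and Mir1a-2. They were named after their values were seen. The mature strands of miR-20a and miR-106b share a seed and are shown for that reason (RefSeq, GRCm38.p6, chr14:115044183-115044205 plus strand and chr5:138165787-138165807 minus strand; seed in capitals).
mmu-miR-20a-5p: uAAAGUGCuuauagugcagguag
mmu-miR-106b-5p: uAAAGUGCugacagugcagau

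Mir20a measured 4.01, 3.78 and 3.40 in AFT024 and 5.24, 4.24 and 4.76 in BFC012 (difference -1.02, or -0.91 without replicate 1, adjusted p = 0.0316). Mir18 measured 5.02, 3.93 and 4.42 against 6.11, 5.27 and 5.82 (difference -1.28, or -1.37 without replicate 1, adjusted p = 0.0467), and Mir106b 5.11, 4.79 and 4.84 against 5.50, 5.65 and 5.15 (difference -0.52, or -0.58 without replicate 1, adjusted p = 0.0383). The lines did not overlap for any of these miRNAs, but leaving out single arrays ended each call, with adjusted p up to 0.124, 0.163 and 0.146. The host transcript Mir17hg did not pass with all replicates (difference -0.58 with and without replicate 1, adjusted p = 0.243), and did with the replicate block (0.00864) and without replicate 1 (0.0321).

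The same lines as confluent cultures, on arrays normalized separately, gave 5685 genes past the threshold (28.5%). Of the 1459 genes that differed in sorted stroma, 1216 passed the same way there, which is 83.3% of the sorted calls and 21.4% of the confluent calls. The pairs shared no array. Opposite calls were made for 3 genes, Mt2, Niban3 and Snord61, named after their values were seen. Mt2, a metallothionein, differed by 1.40 when sorted and -0.62 when confluent. Niban3, whose sorted call ended without replicate 1 (adjusted p = 0.0655) and with the replicate block (0.0561), differed by -0.29 and 0.27, and Snord61, a small nucleolar RNA, by -0.89 and 0.74. In sorted stroma Mt2 lost its call without any array but BFC012 replicate 1 (adjusted p up to 0.17). Levels are not compared across the cultures, since each was scaled on its own.

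Some differences had much smaller values in sorted stroma, each set being on its own scale. Fndc3c1, a fibronectin type III domain gene of the X chromosome, differed by -1.89 when sorted and -5.69 when confluent, Vnn1, a pantetheinase, by -1.85 and -5.39, and Cdh3 by -2.28 and -4.99. The sorted call of Fndc3c1 ended without BFC012 replicate 2 or without any 1 AFT024 array (adjusted p up to 0.132). On the positive side, Lrrc32, which tethers latent TGF-beta, differed by 0.41 (adjusted p = 0.0591, and 0.0327 with the replicate block) and 4.55, Aqp1, a water channel, by 1.54 and 4.54, and Dlk1 by 2.49 and 5.44. All differences named kept their sign. Tspan8 was larger in sorted stroma, at -4.01 against -1.29. The difference between the cultures was not tested, because the arrays had been normalized in separate sets. The spread of the sets was unlike. Over all probe sets, AFT024 replicate 1 had quartiles of 4.32 and 7.23 when sorted and 5.45 and 9.16 when confluent. The sizes of the differences are therefore not on 1 scale.

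**Figure D5:**
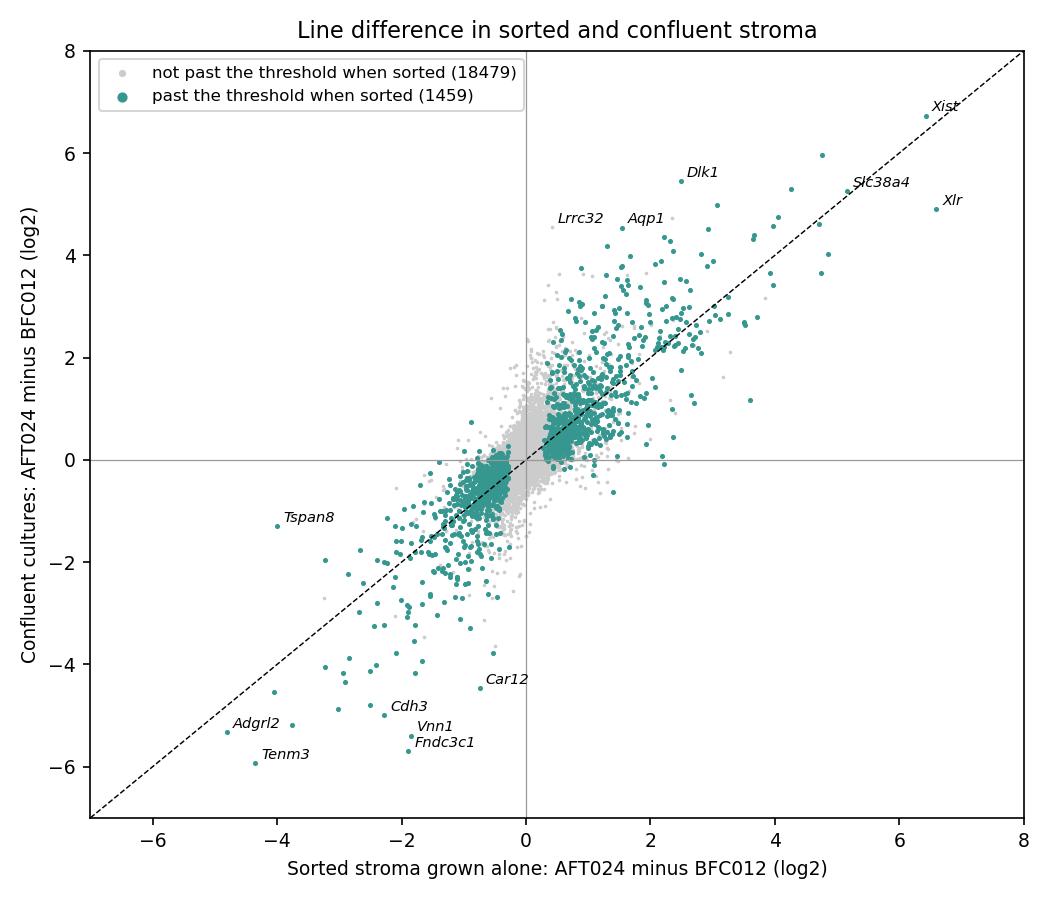
Difference between the lines (AFT024 minus BFC012, log2) in sorted stroma grown alone (horizontal axis) and in confluent cultures (vertical axis) for 19938 genes; the 1459 genes that passed in sorted stroma are green and the dashed line marks equal differences. Most green points lie in the quadrants of equal sign, and Dlk1, Aqp1 and Lrrc32, the last in grey because it did not pass in sorted stroma, lie far above the line.

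With KLS cells in the culture, 2314 genes differed between the lines (11.6%). The test of whether the line difference itself changed with KLS cells passed for 8 genes (0.0401%; 1565 at an unadjusted p under 0.05, and 0 with the replicate block). Interferon-stimulated genes had a median difference of 0.71 in co-culture, with 3 of 34 passing as higher, and none of them passed the test of the change. Of the leading genes, Xist differed by 6.21, Slc38a4 by 5.52 and Adgrl2 by -5.13 in co-culture. These arrays include AFT024 with KLS replicate 1, which also stood apart from its group.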

How the data were processed

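The series holds 51 Affymetrix mouse gene 1.0 ST arrays in 4 separately normalized sets; the 12 sorted arrays form 1 set. The values are log2 signals deposited by the authors, and per the submitters' processing notes RMA and Partek were used; their versions and settings are not given in the sources used here. Because RMA scales arrays to a common distribution, equal array medians say nothing about RNA amounts, and low signals compress differences.

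Of 35556 probe sets, 21789 had 1 gene symbol, 1621 several and 12146 none in the platform annotation. Set against RefSeq, 0 symbols needed an update, and the table held 19938 genes; where a gene had several probe sets (999 genes), its brightest by mean over 51 arrays stood for it. Limma 3.58.1 (R 4.3.3; lmFit, eBayes) was fitted to the 12 sorted arrays with 4 group means and no block, with Benjamini-Hochberg adjustment over all genes and a threshold of 0.05. Precision is limited by having 3 arrays a group. The comparison was refitted without replicate 1 of both lines, and the script was tested on simulated data. Same-numbered arrays of the lines deviated together (correlations 0.671, 0.517 and 0.466). Each value was over 0.1, so a further fit to the 6 arrays took the replicate number as a block. The main fit and the fit without replicate 1 were not paired. Replicates 2 and 3 correlated as well across numbers (0.501 and 0.487), so the values set replicate 1 apart from the rest and do not pair replicates 2 and 3. The block, in a fit to the 6 arrays, is printed where it changed the call of a named gene or moved a count of calls by over 1.5 times. Co-culture arrays share the fit, and confluent arrays were fitted on their own.

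Genes named were, by rule, the 14 with the largest differences in each direction that passed with and without replicate 1 and did not overlap between lines; up to 6 members per gene list with the largest differences past the threshold, and members central to it whatever their value; the 8 past the threshold of the interaction test; the 10 per direction with the largest replicate 1 offsets in both lines; and the 6 per direction that departed most from confluent cultures. Any other gene was chosen after its values were seen. Members and lists were chosen with earlier results of these data known. Figures used Python 3.11.15, pandas 2.3.3 and matplotlib 3.10.9. Other groups of the series are not used here.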

Additional observations from a re-analysis of the deposited data

Results flagged for a closer look

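For 8 genes the difference between AFT024 and BFC012 itself differed between stroma grown alone and stroma grown with KLS cells, by limma's test of the interaction over 12 sorted arrays. The values are the difference alone minus the difference with KLS cells, in log2. Fmo1, a flavin monooxygenase, had the largest, 3.07 (adjusted p = 0.0367), with a line difference of -0.28 alone and -3.35 with KLS cells. Rhoj, a small GTPase of endothelial and stromal cells, had -2.37 (adjusted p = 0.0217), from -0.21 alone to 2.16 with KLS cells. Tmem119, a membrane protein of osteoblasts and microglia, had 1.67 and Nnmt, a nicotinamide methyltransferase, 1.39. Tdpoz8 had 1.3, Ap4e1, of the AP-4 adaptor, 1.1, Adam10, a sheddase of Notch receptors, 1 and Dpep1, a dipeptidase, -1.2. With the replicate number as a block none of the 8 passed, and their adjusted p lay between 0.0601 and 0.0793. The outlying-array check covers groups of 4 or more and was not applied to groups of 3.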

How the results depend on the processing

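The count of 1459 genes past the threshold became 884 when the 6 arrays of the pair were fitted alone, 3152 with the replicate block in those 6 arrays, 4360 with array weights, 3852 without replicate 1 of all 4 sorted groups, and 4522 in the 6 arrays without replicate 1. The 699 higher genes became 1598 with the block, 1981, 1979 and 2274 in the last 3 settings, and the 760 lower genes 408, 1554, 2379, 1873 and 2248 in the 5. The 434 genes at least 2-fold apart became 690, 742 and 742 with array weights and the 2 fits without replicate 1. Leaving out replicate 1, 2 or 3 of both lines gave 2405, 320 and 312 genes in all, 1227, 177 and 167 higher, 1178, 143 and 145 lower, and 675, 208 and 204 at least 2-fold apart. Leaving out single arrays gave 749 to 2241 genes in all, 371 to 1071 higher and 377 to 1170 lower; the highest counts came without BFC012 replicate 1. In co-culture, 2314 genes became 4737, 255 and 396 without replicates 1, 2 and 3 of all 4 groups. The 8 genes of the interaction became 0 with the replicate block, and 0 to 589 when replicates were left out. The causes were not tested. Beyond the values printed beside each result, the block changed no other call of the genes whose values are described. Median centring and cyclic loess moved the share of higher calls from 47.9% to 55.9% and 55.3%.

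All 47 genes tracked kept their direction in each of the 19 alternative settings that held them. Of the 28 leading genes, 20 passed in every setting that held them. The setting of genes above the median signal left out some of these genes. The 28 were chosen for passing with and without replicate 1 and for lines that did not overlap. Leaving out arrays could therefore not reverse their sign. The other genes tracked were picked by hand from those described. Settings without replicate 1 of all 4 groups, and the 6 arrays without replicate 1, were chosen after seeing the data. With 3 arrays a group, 1 of them apart, counts depended on how replicate 1 was treated, and differences at low signals are compressed. The confluent count of 5685 became 3904 to 4906 in the fit to its 6 arrays, with the replicate block, in the 18 arrays normalized together and without each replicate.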
